A study of Mus musculus with 2 samples.

Results

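The 10 genes described here are Trp53, which encodes the transcription factor p53, and 9 genes tied to p53 or to the brakes of the cell cycle, namely Mdm2, Mdm4, Cdkn1a, Cdkn2a, Cdkn2b, Ccng1, Bax, Gdf15 and Phlda3. They were taken by gene symbol from the 55450 genes of the feature table, because PARP inhibitors act on DNA damage and PRMT5 inhibitors on Mdm4 splicing, and all 10 were found. The rule itself uses no measured value.

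The data are 2 single-cell RNA libraries, 1 for each group, from subcutaneous EMT6 tumors, a mouse mammary line used as a model of triple-negative breast cancer. Immunocompetent BALB/c mice received 200000 EMT6 cells. The methods give female sex and an age of 5 to 6 weeks for purchased mice written as BALB/c (nude), and do not say separately whether this covers the EMT6 recipients. Both groups were given the PRMT5 inhibitor LLY-283 at 50 mg/kg, with 3 days on and 4 days off, and the PARP inhibitor Olaparib at 50 mg/kg every day. The Olaparib + LLY-283 group got these drugs alone, and the Combo group also got 200 µg of anti-PD-1 every 3 days. Tumors of 3 mice were pooled into each library. No untreated library was analysed here, so every level below is a level under both drugs. With 1 library in each group there is no measure of the spread between animals. No p-value is given, and intervals are 95% intervals of counting error only. A difference between the libraries cannot be told apart from one between the pools of mice or in library preparation and sequencing.

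p53 is a protein kept low by Mdm2, a ubiquitin ligase that is itself a p53 target, and by Mdm4, which binds p53 and blocks its activity. After DNA damage p53 is stabilized and switches on genes that halt the cycle, such as Cdkn1a (p21, an inhibitor of cyclin-dependent kinases), genes that promote apoptosis, such as Bax, and genes that feed back on the pathway. Cdkn2a and Cdkn2b encode further inhibitors that act on the CDK4 and CDK6 step at the entry into the cycle, and the ARF product of Cdkn2a restrains Mdm2.

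The promoter sequence of RefSeq is shown for Cdkn1a, Mdm2, Ccng1 and Bax, which all hold a match described below. Trp53 holds one as well and is not shown. Each sequence has 300 bases, 250 before the start of transcription and 50 after it, on build GRCm38.p6 and on the strand of the gene. Capitals mark matches to the p53 response element, an exact decamer of the element or, in Cdkn1a and Bax, also a pair of decamers with at most 2 mismatches and at most 2 bases between them. The search read the whole window, and since the decamer motif is its own reverse complement both strands were covered. The first sequence is the Cdkn1a start at chr17:29090729-29091028 (+), the next Mdm2 at chr10:117710709-117711008 (-), then Ccng1 at chr11:40755237-40755536 (-) and Bax at chr7:45466849-45467148 (-).
Cdkn1a: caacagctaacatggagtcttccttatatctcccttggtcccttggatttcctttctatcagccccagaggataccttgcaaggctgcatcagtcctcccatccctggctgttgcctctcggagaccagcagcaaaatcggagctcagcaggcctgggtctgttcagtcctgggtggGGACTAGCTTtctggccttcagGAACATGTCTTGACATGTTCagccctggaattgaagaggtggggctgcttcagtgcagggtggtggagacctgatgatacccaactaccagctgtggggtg
Mdm2: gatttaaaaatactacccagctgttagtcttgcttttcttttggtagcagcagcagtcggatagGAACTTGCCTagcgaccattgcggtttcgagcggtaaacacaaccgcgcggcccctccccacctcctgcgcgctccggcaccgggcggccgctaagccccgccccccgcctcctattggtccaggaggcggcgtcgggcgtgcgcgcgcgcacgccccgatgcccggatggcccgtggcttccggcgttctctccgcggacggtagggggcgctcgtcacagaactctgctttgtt
Ccng1: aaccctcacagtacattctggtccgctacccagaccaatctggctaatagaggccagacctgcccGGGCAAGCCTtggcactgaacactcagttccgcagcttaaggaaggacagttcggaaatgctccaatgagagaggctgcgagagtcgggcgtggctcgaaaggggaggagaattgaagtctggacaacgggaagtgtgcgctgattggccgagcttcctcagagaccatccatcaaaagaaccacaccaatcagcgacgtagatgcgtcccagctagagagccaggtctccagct
Bax: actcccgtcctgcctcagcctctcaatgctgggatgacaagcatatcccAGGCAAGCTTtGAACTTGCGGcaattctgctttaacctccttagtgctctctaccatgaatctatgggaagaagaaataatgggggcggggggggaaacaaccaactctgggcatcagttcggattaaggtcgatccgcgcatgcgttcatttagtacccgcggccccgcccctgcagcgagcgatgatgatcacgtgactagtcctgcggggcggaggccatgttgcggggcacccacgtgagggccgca

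All 10 genes had a promoter in the table, with 14 starts between them. An exact decamer was found for 5 genes, against 8.36% of all 32851 promoters, a share per promoter and not per gene. These were Trp53, at 75 bases before its start, Cdkn1a at 73 and again at 51, Mdm2 at 186, Ccng1 at 185 and Bax at 201. A full pair of decamers was found for 2 genes, against 0.438% of all promoters. In Cdkn1a it began 51 bases before the start, with 1 mismatch and no base between the decamers. In Bax it began 201 bases before the start, with 2 mismatches and 1 base between them. No match to either form was found in these windows for Mdm4, Cdkn2a, Cdkn2b, Gdf15 or Phlda3, or at the second start of Cdkn1a at chr17:29093519-29093818. A match is a description of letters and not evidence of binding in these tumors.

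After filters on genes, mitochondrial UMIs and doublets, 13665 cells were kept for Olaparib + LLY-283 and 5909 for Combo, and 39 barcodes occurred in both libraries. A UMI is a counted RNA molecule. Cells were assigned to classes by the marker UMIs they held. Tumor-like cells, which carry keratin transcripts, numbered 8840 and 2528, with median depths of 9192 and 48187.5 UMIs. Krt8 stood at 892 and 866 UMIs per 1000000 UMIs of the class (CPM) in them, and Epcam at only 3.59 and 3.43 CPM. Macrophage-monocyte-like cells numbered 720 and 584, neutrophil-like cells 610 and 1271, fibroblast-like (CAF-like) cells 179 and 73, and T/NK-like cells 48 and 39. A further 3032 and 1101 cells stayed unassigned. The marker thresholds were set after seeing the data, and 2118 and 876 cells lay within 1.5-fold of the tumor threshold. Throughout, paired values are for Olaparib + LLY-283 first and Combo second.

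Trp53 (chr11:69580359-69591873) was detected as RNA in tumor-like cells at 112 CPM (110 to 114) and 136 CPM (134 to 138). Its level in macrophage-monocyte-like cells was 47.9 and 69.9 CPM. In neutrophil-like cells it was 33.2 and 32.4 CPM. Tumor-like cells thus held more Trp53 RNA per UMI than either of these classes in both libraries, 2.33-fold and 1.94-fold over macrophage-monocyte-like cells. T/NK-like cells, at 147 CPM from 8 UMIs and 98.3 CPM from 25 UMIs, had intervals that overlapped the tumor-like level in both. p53 activity is set largely by the stability of the protein, which RNA counts do not measure.

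Mdm2 (chr10:117688875-117710758) was at 87.0 CPM (85.2 to 88.9) and 80.2 CPM (78.6 to 81.8) in tumor-like cells. It was at 115 CPM in the macrophage-monocyte-like cells of both libraries and at 144 CPM (111 to 183) and 166 CPM (151 to 183) in neutrophil-like cells. Per UMI, the negative regulator was therefore higher in neutrophil-like than in tumor-like cells, by 1.66-fold (1.27 to 2.11) and 2.08-fold (1.88 to 2.29). Neutrophil-like cells held far fewer UMIs each, and a Mdm2 UMI was found in 9.18% and 23.8% of them. In tumor-like cells, also at full depth, it was found in 49.8% and 82.8%. Mdm4 (chr1:132959484-133030561) was at 22.6 and 28.8 CPM in tumor-like cells, 26.4 and 32.1 CPM in macrophage-monocyte-like cells, and 24.3 and 41.9 CPM in neutrophil-like cells. Its neighbours in the order of classes mostly had overlapping intervals. Neutrophil-like over tumor-like cells, the Mdm4 fold was 1.13 (0.537 to 1.93) and 1.46 (1.19 to 1.77), so the Combo interval lay above 1. The counts are per gene from the 3′ end, so the spliced forms of Mdm4 that PRMT5 inhibition is known to shift cannot be told apart here.

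Cdkn1a (chr17:29090976-29100727) was much higher per UMI in macrophage-monocyte-like and neutrophil-like cells than in tumor-like cells. In tumor-like cells it was at 165 CPM (163 to 168) and 133 CPM (131 to 135). In macrophage-monocyte-like cells it was at 646 CPM (608 to 686) and 625 CPM (607 to 644). In neutrophil-like cells it reached 1496 CPM (1386 to 1613) and 1849 CPM (1797 to 1903). Neutrophil-like cells thus exceeded tumor-like cells by 9.05-fold and 13.9-fold, and macrophage-monocyte-like cells exceeded them by 3.91-fold and 4.70-fold. CAF-like cells were closer to tumor-like cells, at 234 CPM (198 to 274) and 199 CPM (176 to 224), but still above them in both libraries. In Combo, dendritic-like cells at 395 CPM (285 to 534) and muscle-like cells at 356 CPM (237 to 515) also lay above the tumor-like level. So did endothelial-like cells, at 228 CPM (152 to 327). In Olaparib + LLY-283 the intervals of these small classes overlapped the tumor-like level. T/NK-like cells had 92.0 and 86.5 CPM, on 5 and 22 UMIs. Osteoclast-like cells had 124 CPM (74.8 to 194) and 156 CPM (119 to 200), intervals that overlapped the tumor-like level in both libraries.

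The same order was seen in shares of cells at a matched depth. Where every cell was thinned to 1000 UMIs, a Cdkn1a UMI was expected in 70.6% of 54 and 69.7% of 1152 neutrophil-like cells, in 41.5% and 40.7% of macrophage-monocyte-like cells and in 14.2% and 11.7% of tumor-like cells. Only 54 of the 610 neutrophil-like cells in Olaparib + LLY-283 reached this depth. Median depths of neutrophil-like cells were 652.5 and 1909 UMIs, far below those of tumor-like cells. Without thinning the order was reversed, with a Cdkn1a UMI in 54.3% and 76.5% of neutrophil-like and 63.1% and 84.3% of tumor-like cells. The higher level thus describes a share of the RNA counted and not a count per cell. The neutrophil markers S100a8 and S100a9 summed, in tumor-like cells, to 0.145% and 0.211% of their neutrophil-like level. Both genes define the neutrophil-like class, and keratin-bearing cells near its threshold were left unassigned. A low share thus follows in part from the class rule. Neutrophil-like cells held 3.15% and 15.3% of all Cdkn1a UMIs of kept cells, while contributing 0.381% and 1.59% of all UMIs. Tumor-like cells held 76.0% and 54.5% of the Cdkn1a UMIs on 83.1% and 78.9% of all UMIs. A level of Cdkn1a over all kept cells, 181 and 192 CPM, was higher in the Combo library, whereas the level in tumor-like cells was lower there.

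Within the neutrophil-like cells, those above the median level of the chemokines Ccl3 and Ccl4 had more Cdkn1a. The values were 1796 CPM (1626 to 1980) above the median and 1194 CPM (1055 to 1345) at or below it in the Olaparib + LLY-283 library. They were 2197 CPM (2117 to 2280) and 1490 CPM (1423 to 1559) in the Combo library. Mdm2 followed the same direction in the Combo library, at 199 CPM (176 to 225) and 133 CPM (113 to 155), but in the Olaparib + LLY-283 library it was at 114 CPM (74.8 to 168) and 173 CPM (123 to 237), with overlapping intervals. Macrophage-monocyte-like cells were split by the complement genes C1qa, C1qb and C1qc. There Cdkn1a was at 582 CPM above the median and 726 CPM at or below it in the Olaparib + LLY-283 library, and at 564 and 725 CPM in the Combo library. Cdkn1a was thus lower in the macrophage-monocyte-like cells with more C1q RNA in both libraries. These splits were chosen after the class values had been seen.

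Cdkn2a (chr4:89274471-89294653) was higher in tumor-like cells than in macrophage-monocyte-like and neutrophil-like cells. It was at 26.6 CPM (25.6 to 27.6) and 32.3 CPM (31.3 to 33.3) there and at 4.79 and 6.37 CPM in macrophage-monocyte-like cells. The p16INK4a and p19ARF products of the locus share their 3′ end and were counted together. Its neighbour Cdkn2b (chr4:89306299-89311039), which encodes p15INK4b, was almost absent from the same cells. It had 0 UMIs among 98637467 in tumor-like cells under Olaparib + LLY-283, where a floor of 3 UMIs is 0.0304 CPM and the upper limit of the exact 95% interval is 0.0374 CPM, and 7 UMIs among 125517069 under Combo, or 0.0558 CPM. The 2 adjacent genes thus parted in tumor-like cells. In macrophage-monocyte-like cells Cdkn2b was found at 5.39 CPM (9 UMIs) and 6.65 CPM (47 UMIs). Under Olaparib + LLY-283 the macrophage-monocyte-like interval (2.47 to 10.2 CPM) lay above the tumor-like limit, and under Combo the level was 119-fold (53.6 to 313) higher than in tumor-like cells.

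The other p53 targets had their own distributions. Ccng1 (chr11:40748552-40755311), which encodes cyclin G1, was at 73.6 and 83.4 CPM in tumor-like cells. Its highest level was in skeletal muscle-like cells, at 290 CPM (132 to 550) from 9 UMIs and 458 CPM (321 to 634) from 36 UMIs, whose intervals did not overlap those of tumor-like cells. Bax (chr7:45461697-45466898), a pore-forming activator of apoptosis, was nearly level between tumor-like cells, at 395 and 388 CPM, and macrophage-monocyte-like cells, at 382 and 379 CPM. It was lower in neutrophil-like cells, at 217 CPM (176 to 264) and 164 CPM (149 to 181). Gdf15 (chr8:70629393-70632456), a secreted stress cytokine, was at 33.9 and 26.3 CPM in tumor-like cells and at 9.59 and 3.96 CPM in macrophage-monocyte-like cells. Phlda3 (chr1:135766119-135769136), which restrains AKT at the membrane, was at 138 and 137 CPM in tumor-like cells, and at 37.6 and 34.8 CPM in neutrophil-like cells. Endothelial-like cells had Phlda3 at 157 and 196 CPM on 7 and 25 UMIs. For Gdf15 the Combo endothelial-like cells had 39.2 CPM (12.7 to 91.6) on 5 UMIs, an interval that includes the tumor-like level. Gdf15 and Cdkn2a were therefore lower in the macrophage-monocyte-like and neutrophil-like classes than in tumor-like cells, whereas Bax was near level with the macrophage-monocyte-like class.

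**Figure D1:**
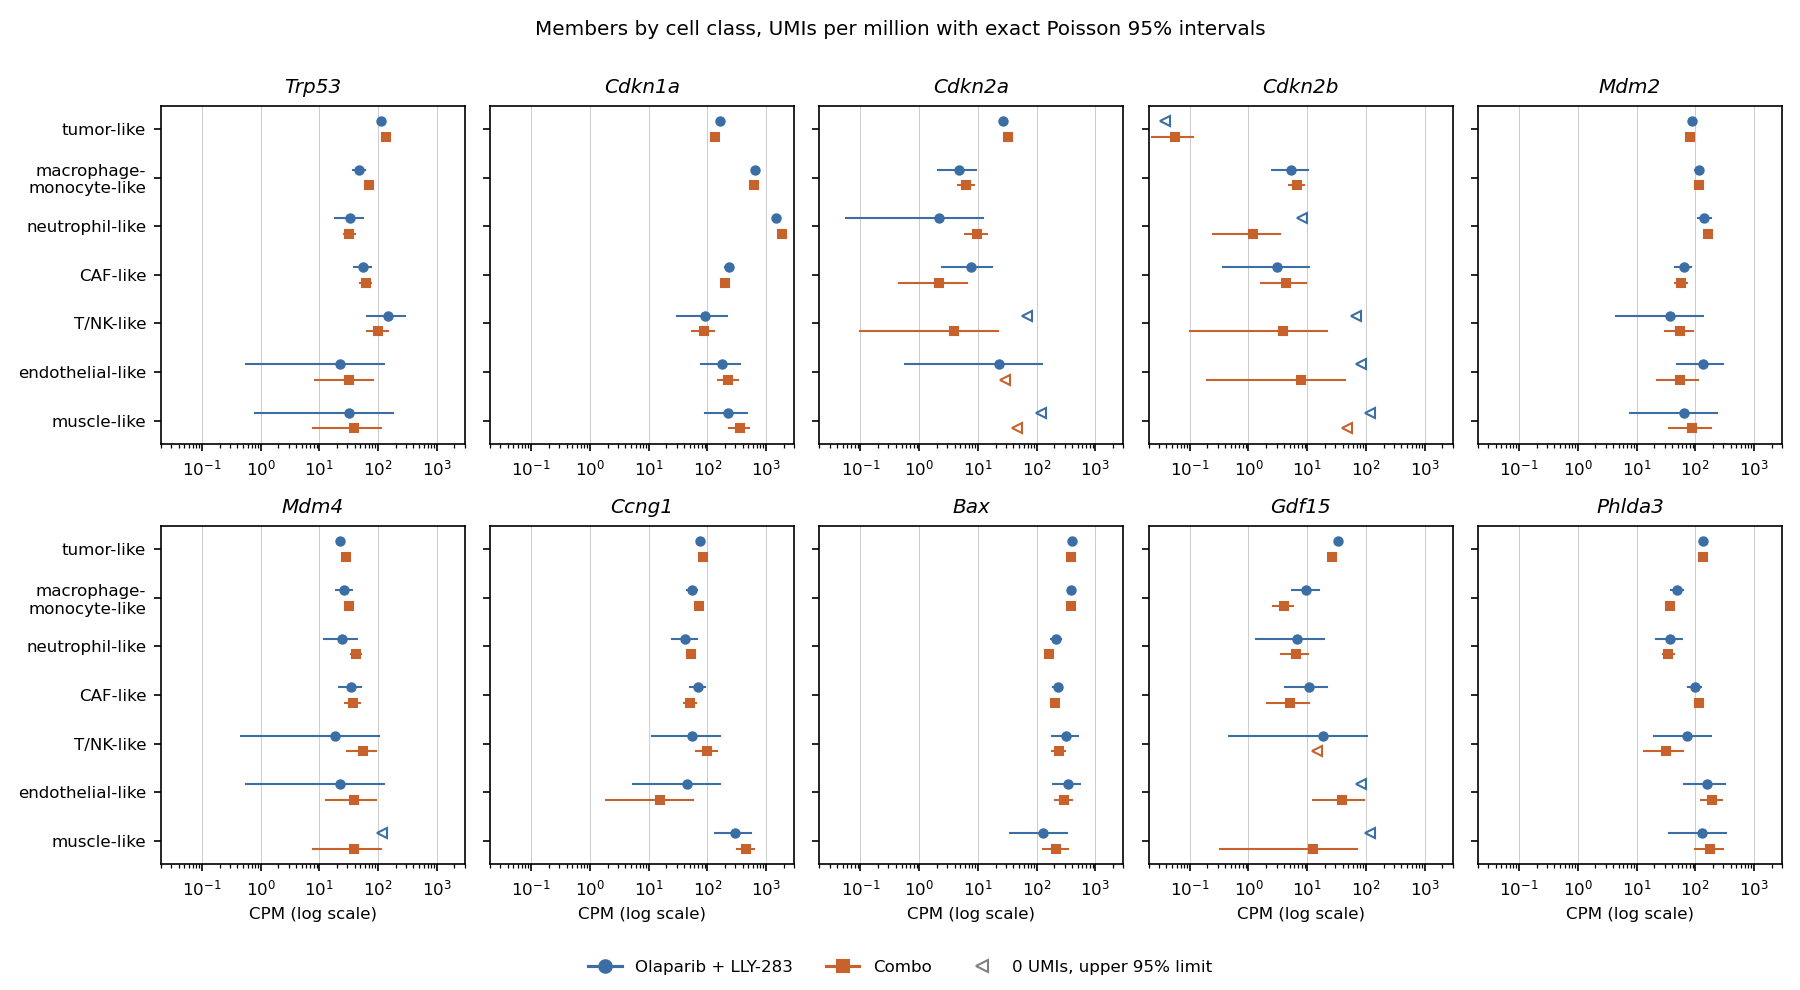
Level of each gene in CPM on a log scale (horizontal axis) by cell class (vertical axis) in both libraries. Points have exact Poisson 95% intervals, and open triangles mark the upper limit where no UMI was counted. Cdkn1a is highest in neutrophil-like cells, at 1496 and 1849 CPM, and Cdkn2b has its lowest upper limits in tumor-like cells, at 0.0374 and 0.115 CPM.

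Low levels in myeloid classes have to be read beside the keratin RNA found there. Krt8 stood in neutrophil-like cells at 28.7% and 15.6% of its tumor-like level. In neutrophil-like cells Trp53 was at 29.5% and 23.9% of its tumor-like level, Phlda3 at 27.2% and 25.3%, and Gdf15 at 19.6% and 24.0%. Cdkn2a was at 8.31% and 29.4%, on 1 and 24 UMIs. In macrophage-monocyte-like cells Krt8 was at 11.95% and 10.5% of its tumor-like level, Cdkn2a at 18.0% and 19.7%, and Gdf15 at 28.3% and 15.0%. In the neutrophil-like cells of Olaparib + LLY-283 the shares of Phlda3, Gdf15 and Cdkn2a were below that of Krt8, and that of Trp53 was near it. They rest on 17, 3, 1 and 15 UMIs in that order, too few to place them against Krt8. In the Combo library the shares of all these genes were above the 15.6% of Krt8. Krt8 is itself a marker that defines tumor-like cells, and cells passing more than 1 class threshold were set aside. Its shares are therefore shaped by the class rule and are not a neutral gauge. The part of free tumor RNA in these levels was not tested. Cdkn1a and Mdm2 were higher per UMI in neutrophil-like than in tumor-like cells.

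Across 9 of the genes, Cdkn2b being too sparse, 2 were higher by over 1.5-fold in neutrophil-like than in tumor-like cells in both libraries, against 11.1% and 16.6% of all genes compared, and 6 were lower by that margin, against 57.5% and 63.1%. In macrophage-monocyte-like cells 1 was higher in both libraries, against 21.3% and 25.9%, and 4 were lower, against 34.5% and 34.2%. In CAF-like cells 1 and 0 were higher, against 22.4% in both libraries, and 4 and 5 were lower, against 28.5% and 26.3%. With 9 genes, these counts are near the background, apart from the lower genes in CAF-like cells, whose counts were above it. Whether that differs from the background was not tested. The gene higher in macrophage-monocyte-like cells was Cdkn1a, and Mdm2 joined it in neutrophil-like cells. The gene higher in CAF-like cells was Mdm4, in Olaparib + LLY-283 only, by 1.57-fold on 23 UMIs. Its interval (0.973 to 2.31) includes 1.

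The gene whose log2(CPM + 1) over 12 class-by-library sums was most like that of Cdkn1a was Cebpb, with a Pearson r of 0.98 among 6344 genes compared, followed by Gm5150 at 0.96 and Themis2 at 0.96. For Mdm2 the closest were Gk at 0.98, Ets2 at 0.96 and Pnpla7 at 0.93. Trp53 was closest to Gmps at 0.97, Snrpg at 0.95 and Rangap1 at 0.94. Among the genes closest to Ccng1 were Csrp3 at 0.95 and Shisa2 at 0.94, and Phlda3 was closest to Gstm5 at 0.96, Hspb8 at 0.93 and Smyd2 at 0.92. For the other genes, those among the closest were Tcf25 and Fnbp1l for Cdkn2a (0.88 and 0.85), Tmem9b, Usp4 and Tmem119 for Cdkn2b (0.93, 0.92 and 0.92), Prkd3, Nfat5 and Ddx58 for Mdm4 (0.91, 0.85 and 0.85), Gipc1, Sem1 and Bst2 for Bax (0.92, 0.91 and 0.91), and Apol10b, Zc2hc1a and Cib2 for Gdf15 (0.94, 0.90 and 0.89). The points share libraries and depths, and these likenesses are descriptions of order over classes. Those of Cdkn2b rest on few UMIs and are weakly based. Cdkn2b had 0 and 7 UMIs in tumor-like, 0 and 3 in neutrophil-like and 2 and 6 in CAF-like cells. Cdkn2a and Gdf15 were also sparse outside tumor-like cells, so their likenesses are weakly based too. Cdkn2a had 1 and 24 UMIs in neutrophil-like and 5 and 3 in CAF-like cells. Gdf15 had 3 and 16, and 7 and 7.

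Phase was then read in the tumor-like cells with at least 5000 UMIs, thinned to that depth and scored on S and G2/M gene lists that hold none of the 10 genes. In the Olaparib + LLY-283 library 3188 cells scored as G1, 861 as S and 3373 as G2/M, of 7422. In the Combo library the numbers were 1173, 284 and 942, of 2399. In all, 1189 and 344 cells lay within 0.05 of the score boundary between G1 and the other phases. Cells near the boundary between S and G2/M were not counted. Median depth before thinning rose from 8731.5 UMIs in G1-scored to 12520 in G2/M-scored cells under Olaparib + LLY-283, and from 42594 to 59184 in the Combo library.

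Mdm2 fell lowest in S-scored cells. In the Olaparib + LLY-283 library it was at 95.9 CPM in G1-scored, 60.7 CPM in S-scored and 86.1 CPM in G2/M-scored cells. In the Combo library it was at 91.8, 51.5 and 77.7 CPM. The S-over-G1 fold was 0.634 (0.582 to 0.689) and 0.561 (0.521 to 0.604), and Mdm2 was the 1 gene of 9 lower by over 1.5-fold in S-scored cells in either library, against 4.63% and 7.12% of all genes. With phase called from list UMI shares the log2 ratio was -0.49 in both libraries, and over all 3 other phase calls it reached -0.46 in Olaparib + LLY-283 and -0.49 in Combo, so that the 1.5-fold margin was kept in some settings only. Mdm4 was also lower in S-scored cells, at 17.9 against 22.2 CPM in G1-scored cells and 21.9 against 28.9 CPM.

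Trp53 went the other way. It was at 97.7 CPM in G1-scored, 124 CPM in S-scored and 120 CPM in G2/M-scored cells under Olaparib + LLY-283, and at 118, 158 and 145 CPM in the Combo library. The log2 S-over-G1 ratio was 0.35 (0.25 to 0.44) and 0.42 (0.36 to 0.49), and both libraries had the higher value in S-scored and G2/M-scored cells than in G1-scored cells. No gene of the 9 was higher by over 1.5-fold in S-scored cells, against 9.8% and 10.6% of all genes, or past that margin in G2/M-scored cells in either direction, against 6.72% and 7.77% higher and 2.92% and 5.2% lower.

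Among the inhibitors, Cdkn2a was lower in S-scored cells, at 21.9 CPM against 30.2 CPM in G1-scored cells and at 26.6 against 35.3 CPM. Cdkn1a was at 159 CPM in G1-scored, 156 CPM in S-scored and 173 CPM in G2/M-scored cells under Olaparib + LLY-283. In the Combo library it was at 132, 105 and 141 CPM. The S-over-G1 log2 ratio of Cdkn1a was -0.02 and -0.33, and with phase called from list UMI shares it was 0.12 and -0.02, so the low S value of the Combo library rested on how phase was called. Cdkn2b had at most 4 UMIs in any phase and gets no ratio.

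Of the targets, Gdf15 was highest in G2/M-scored cells, at 38.6 CPM against 28.1 CPM in G1-scored cells and at 30.5 against 23.2 CPM. Its G2/M-over-G1 log2 ratio was 0.45 (0.34 to 0.57) and 0.39 (0.28 to 0.50). Bax was at 420 against 359 CPM and at 411 against 364 CPM in the same comparison. Ccng1 and Phlda3 moved by less, with G2/M-over-G1 log2 ratios of 0.22 and 0.20 in the Olaparib + LLY-283 library and 0.08 and 0.09 in the Combo library. All of these are within-library comparisons of cells from pooled mice.

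**Figure D2:**
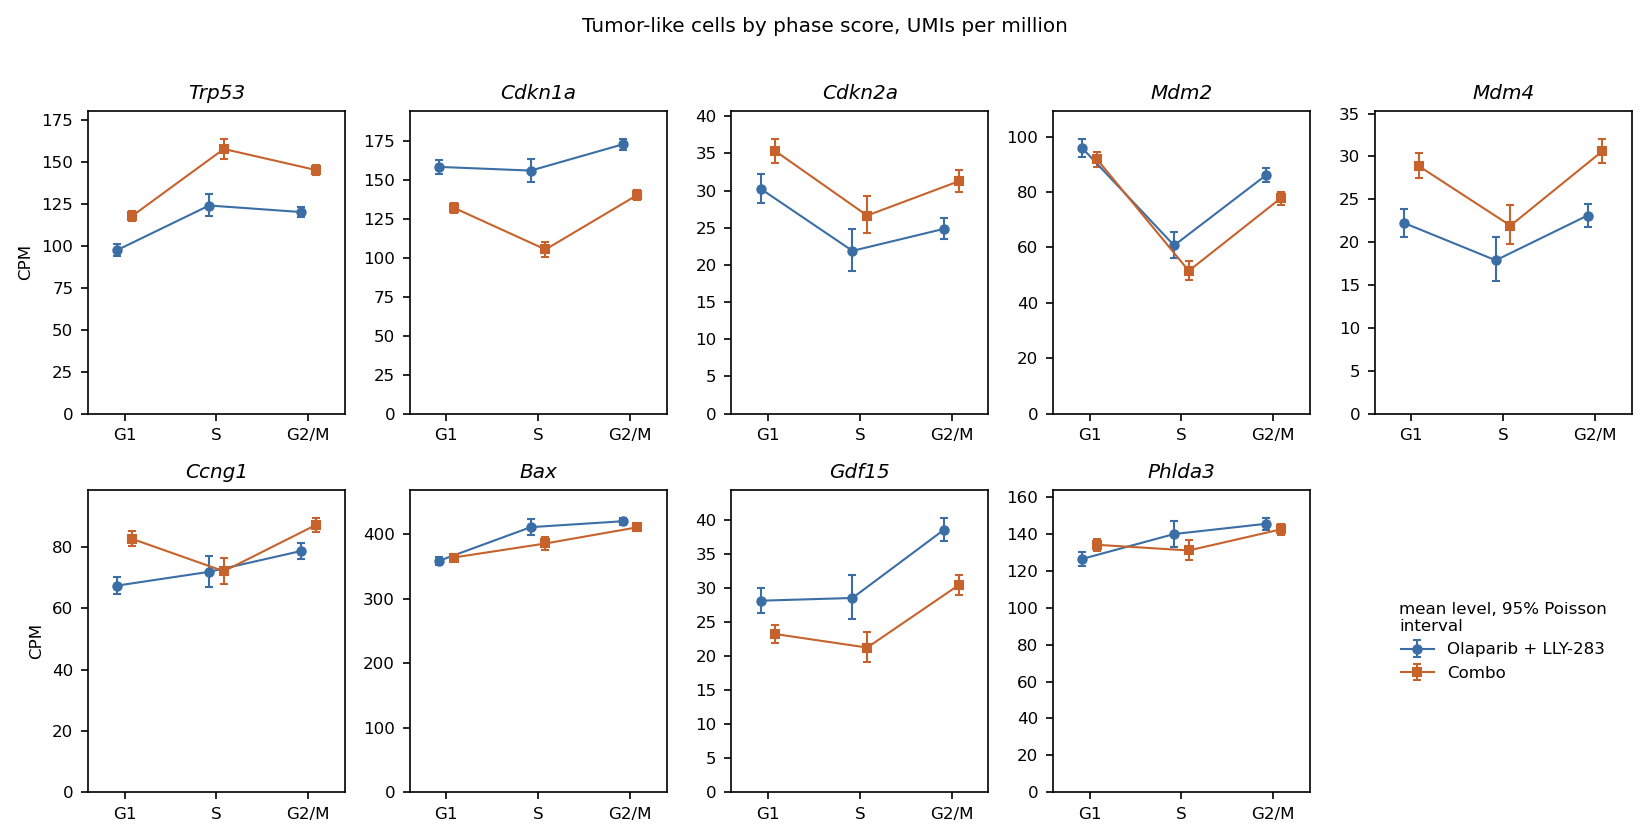
Level in CPM (vertical axis, from 0) of 9 genes in G1-, S- and G2/M-scored tumor-like cells of both libraries, with 95% Poisson intervals. Mdm2 has its lowest level in S-scored cells of both libraries, at 60.7 and 51.5 CPM, while Trp53 is lowest in G1-scored cells.

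The question of the Combo group is what anti-PD-1 adds to both drugs. In tumor-like cells 0 of the 9 genes with at least 100 UMIs were past 1.5-fold between the libraries, against 5.75% of 13459 genes higher and 1.98% lower. The median log2 ratio of Combo over Olaparib + LLY-283 was 0.07 over all genes and -0.01 over the 9.

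Cdkn1a was lower in the Combo library, with a log2 ratio of -0.31 (-0.35 to -0.28), and 6.38% of genes had a lower ratio. Gdf15 was lower by a like amount, at -0.36 (-0.43 to -0.29). Mdm4 was higher, at 0.35 (0.28 to 0.43), as were Trp53 at 0.27 (0.24 to 0.31) and Cdkn2a at 0.28 (0.21 to 0.35). Of all genes, 86.0% had a lower ratio than Mdm4, 79.6% than Trp53 and 80.2% than Cdkn2a. Bax and Phlda3 were almost the same, at -0.03 and -0.01, Mdm2 was at -0.12 and Ccng1 at 0.18. The counting intervals are narrow because the sums are large, and they say nothing of how much 2 pools of mice given the same drugs would differ. The libraries also differed in median tumor-like depth, at 9192 and 48187.5 UMIs, and in doublet calls, at 14.7% and 0.789%. Such differences between preparations cannot be told apart from the groups.

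The lower Cdkn1a held in each phase, with log2 ratios of -0.26 in G1-scored, -0.57 in S-scored and -0.30 in G2/M-scored cells. Gdf15 was likewise lower in each, at -0.28, -0.43 and -0.34, and Trp53 higher in each, at 0.27, 0.35 and 0.27. The direction of these 3 genes was therefore the same whichever phase was read. These ratios were read under the main phase call only, and the low Combo S level of Cdkn1a depended on that call. Ccng1 was not uniform, at 0.29 in G1-scored and 0.00 in S-scored cells.

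**Figure D3:**
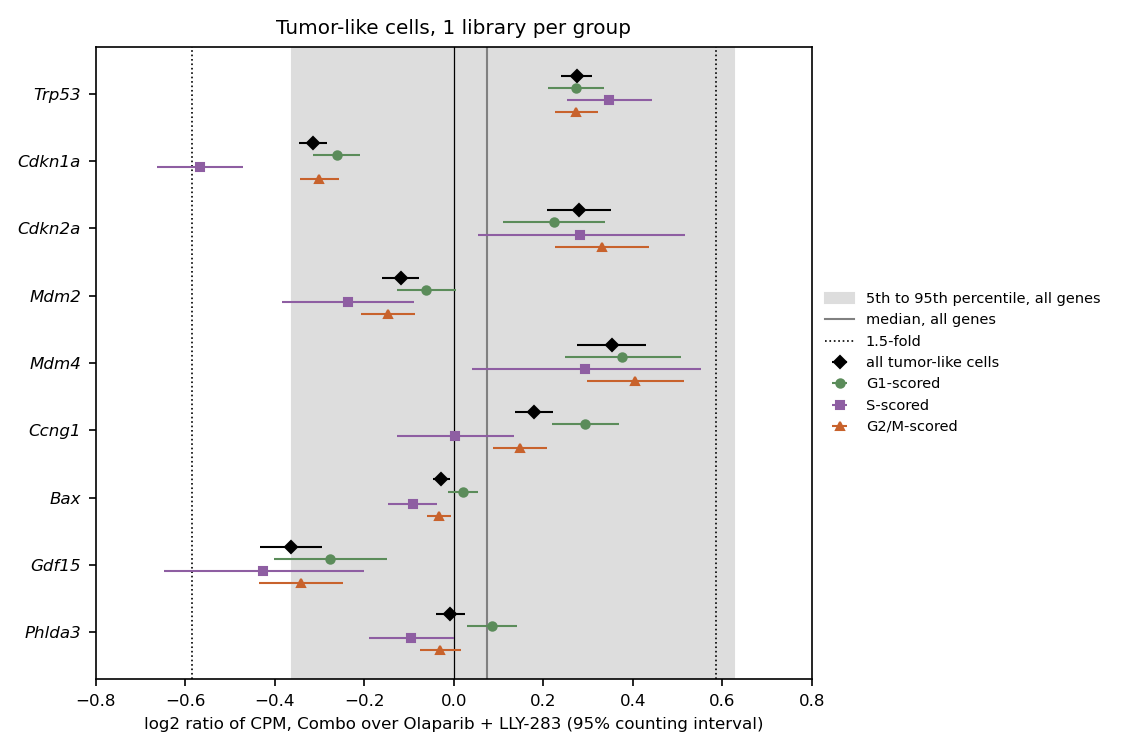
The log2 ratio of CPM of Combo over Olaparib + LLY-283 (horizontal axis) in all tumor-like cells and by phase for 9 genes, with 95% counting intervals. The band spans the central range of all genes and dotted lines mark 1.5-fold. Cdkn1a and Gdf15 lie left of 0 in every phase, and none of the 9 values for all tumor-like cells passes a dotted line.

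In the other classes, Cdkn1a was close between the libraries in macrophage-monocyte-like cells, with a log2 ratio of -0.05 (-0.14 to 0.05), and higher in the Combo library in neutrophil-like cells, at 0.30 (0.19 to 0.42), where 65.6% of genes had a lower ratio. Of 7 genes with enough UMIs in macrophage-monocyte-like cells 0 were past 1.5-fold, against 5.32% of genes higher and 1.84% lower. The largest was Trp53, at 47.9 and 69.9 CPM. Of 6 genes in neutrophil-like cells 1 was higher, against 18.6%, and 0 were lower, against 13.3%. This was Mdm4, at 24.3 CPM from 11 UMIs and 41.9 CPM from 106 UMIs, with a fold of 1.66 whose interval (0.925 to 3.56) includes 1. In CAF-like cells 0 of 6 were past 1.5-fold, against 4.45% higher and 2.49% lower.

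In the related gene lists of the pathway, 0 tested genes were past 1.5-fold between the libraries in tumor-like cells, against 5.75% of all genes higher and 1.98% lower, a share at which lists of this size would hold few such genes. Of 28 other p53 targets 25 had enough UMIs, with a median log2 ratio of 0.06 and a range of -0.33 to 0.43. The extremes were Tigar, a regulator of glycolysis, at 6.64 and 5.27 CPM, and Ercc5, a nuclease of excision repair, at 10.5 and 14.2 CPM. Of 14 genes that control p53, 13 were tested, with a median of 0.18, and Chek2, a kinase of the damage checkpoint, had the highest ratio at 0.53. The 3 tested CDK inhibitors of 4 had a median of 0.06, with Cdkn1b (p27) at 36.1 and 47.5 CPM. The medians were 0.01 for 12 genes of the cyclin, CDK and RB step, 0.02 for 8 genes of the BCL2 family and 0.15 for 5 genes of the ATF4 stress response. Every list held genes on both sides of 0, and the genes named here were chosen after their values were seen.

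Cells differ more in some of these genes than in others. At 5000 UMIs, the variance of Cdkn1a over tumor-like cells was 1.70 and 1.83 times its mean, a ratio above that of 97.6% and 97.2% of genes. For Gdf15 it was above that of 96.2% and 95.4% of genes, and for Trp53 it was 1.05 and 1.02, near the median gene at 1.03 and 1.05. For Mdm2 the ratio was 1.44 and 2.62. Of the Mdm2 UMIs in the 2399 Combo cells, 258 of 10019 came from 2 cells with 65.1 and 32.7 Mdm2 UMIs per 10000, where the median cell had 0.573. These were 2.58% of the UMIs, and without those cells the Combo level was 78.0 CPM. In the Olaparib + LLY-283 library 1 cell exceeded 20 per 10000, at 23.6. The ratio was also above that of 92.9% and 91.2% of genes for Bax, 90.3% and 91.3% for Cdkn2a, 90.0% and 88.9% for Ccng1, and 89.8% and 87.9% for Phlda3. Trp53 and Mdm4 were the members nearer the middle, above 66.1% and 32.3% of genes and above 23.8% and 59.0%. Genes were not matched on their mean, which was 1.93 and 1.87 UMIs for Bax and 0.131 and 0.152 for Cdkn2a. These places therefore do not rank spread at a like level of expression.

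Whether the genes are found in the same cells was read as the number of tumor-like cells with a UMI of both, over the number expected if detection were independent, at 5000 UMIs. A ratio of 1 means independence. Cdkn1a and Mdm2 were found together in 1.16 and 1.23 times the expected number of cells. Cdkn1a and Gdf15 had ratios of 1.21 and 1.31. Mdm2 and Gdf15 had ratios of 1.13 and 1.27, so that each of these 3 pairs was past 1.1 in both libraries. Cells with a UMI of all 3 genes were not counted. Of 36 pairs, 4 and 6 exceeded 1.1, with a median pair at 1.02 in both libraries. Beside those 3 pairs, Cdkn1a with Ccng1 was past 1.1 in Olaparib + LLY-283, and Mdm4 was past it in Combo with Gdf15 at 1.18, with Mdm2 at 1.13 and, by a small margin, with Cdkn1a. Among all genes the share over 1.1 was 1.53% and 7.95% for Cdkn1a, 5.12% and 15% for Mdm2, and 8.67% and 17.9% for Gdf15. For Mdm4 it was 9.26% and 24.6%, for Cdkn2a 9.66% and 2.87%, and for Bax 0% in both. The Cdkn1a and Gdf15 ratio stood at 1.19, 1.27 and 1.20 within G1-, S- and G2/M-scored cells under Olaparib + LLY-283, and at 1.28, 1.33 and 1.31 in the Combo library. The S-scored ratios rest on 861 and 284 cells, with a Gdf15 UMI expected in only 10.7% and 8.19% of them. No interval was computed for the ratios within a phase.

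Trp53 was found independently of its targets, with ratios of 1.02 and 0.995 with Cdkn1a and 0.984 and 0.985 with Mdm2. Its own closest partners were Exo1 at 1.18 and 1.14, Eme1 at 1.18 and 1.14 and Rad51ap1 at 1.14 in Olaparib + LLY-283, genes of DNA recombination and repair, of which Exo1 and Rad51ap1 are in the S list. Cdkn2a with Cdkn1a lay a little below 1, at 0.934 and 0.9498. No interval is given for these ratios, and whether they differ from 1 by more than counting error was not tested. Bax lay near 1 with every other member, and since it was found in 82.6% and 80.8% of cells its ratio cannot go far above 1.

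**Figure D4:**
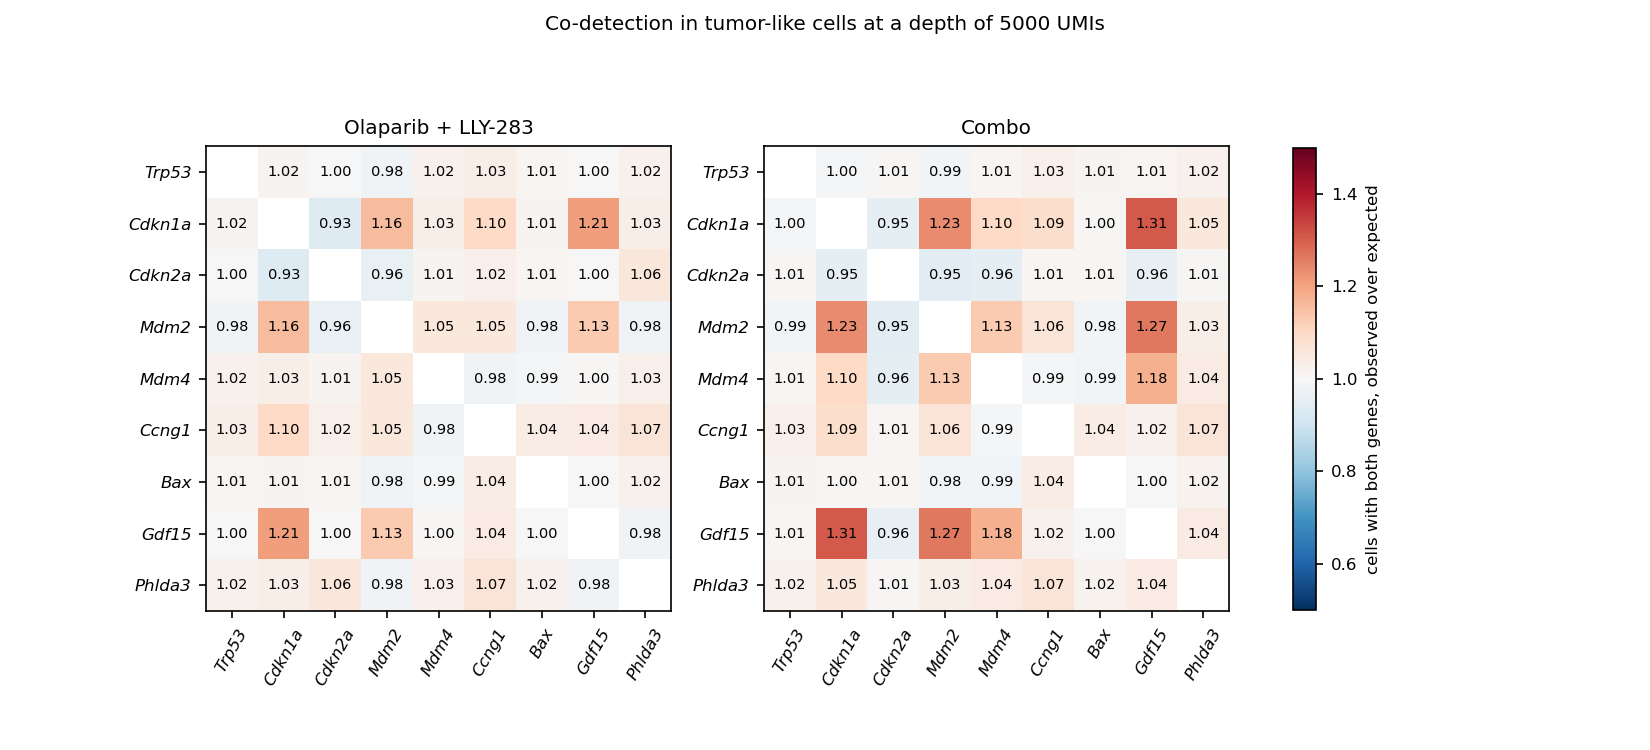
Observed over expected number of tumor-like cells with a UMI of both genes at 5000 UMIs, for each pair of 9 genes (rows and columns) in each library, with color from 0.5 to 1.5. The 3 pairs among Cdkn1a, Mdm2 and Gdf15 exceed 1.1 in both panels, Mdm4 pairs with them exceed it in Combo, and the Trp53 row lies near 1.

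The wider p53 list behaved unevenly. Of 23 other p53 targets with a UMI in at least 2% of cells, 8 and 13 exceeded 1.1 with Cdkn1a, against 1.53% and 7.95% of all genes, among them Eda2r at 1.23 and 1.34 and Trp53inp1 at 1.21 and 1.31. With Ccng1 10 and 8 did so, against 2.83% and 0.691% of all genes, among them Trp53inp1 at 1.35 and 1.29. With Mdm2 5 and 12 did, against 5.12% and 15%. With Trp53 0 and 0 did, which is near its background of 1.11% and 0.484%. Phlda3 had 3 in each library, against 1.23% and 0.856%. Gdf15 had 6 and 14, against 8.67% and 17.9%. Mdm4 had 3 and 10, against 9.26% and 24.6%, and Cdkn2a 5 and 1, against 9.66% and 2.87%. Bax had 0 in each, as did all genes with it.

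Gdf15 had other partners as well. All 5 genes of the ATF4 list, a program of the integrated stress response, exceeded 1.1 with Gdf15 in both libraries, against 8.67% and 17.9% of all genes, with medians of 1.44 and 1.67. The highest were Trib3, at 2.06 and 2.36, and Chac1, at 1.98 and 2.36. Sesn2, a p53 target that ATF4 also induces, was at 1.65 and 1.68. Cdkn1a had 2 and 3 of these 5 over 1.1, against 1.53% and 7.95%. Mdm2 was found most with Pgf at 1.58 and 1.68, Dusp4 at 1.48 and 1.55, Dusp10 at 1.43 in both and Spry2 at 1.41 and 1.48, of which Dusp4 and Spry2 are feedback inhibitors of the MAP kinase pathway. The partner genes named outside the lists were chosen after their values were seen.

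In macrophage-monocyte-like cells at 1000 UMIs the Cdkn1a and Mdm2 ratio was 1.21 (0.821 to 1.71) and 1.22 (0.829 to 1.73). In neutrophil-like cells it was 1.06 (0.352 to 2.43) on 54 cells and 0.974 (0.803 to 1.17) on 1152 cells. Tumor-like cells at the same depth had 1.34 (1.13 to 1.58) and 1.49 (1.03 to 2.07). The neutrophil-like intervals include 1, so no pairing cell by cell was found there at this depth. A Cdkn1a UMI was expected in 70.6% and 69.7% of these neutrophil-like cells, against 14.2% and 11.7% of tumor-like cells. The neutrophil-like ratio therefore has less room above 1, and the classes cannot be compared on it.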

How the data were processed

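The authors deposited for each library a matrix of raw UMI counts of genes by cells, not normalized. The study's methods name the 10x 3′ kit, Cell Ranger and mouse genome mm10, and the matrix header names Cell Ranger 6.1.2, while the submitters' processing notes name Seurat 4.1.0. The methods name other versions of both tools. Totals were 147214934 UMIs in 16115 cells and 162522700 in 7542. Gene positions came from GENCODE M21.

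The filter required 200 detected genes and a mitochondrial share below 20%. Scrublet (scanpy 1.11.5) with its default transform called no doublets, so log transformation was used after seeing this, which called 2364 and 47 cells, or 14.7% and 0.789%. Classes came from marker UMIs per 10000, with thresholds set after seeing the data, and cells passing more than 1 were set aside. Levels are UMI sums per 1000000 with exact Poisson intervals, and shares have exact Clopper-Pearson intervals. Thinned shares are hypergeometric expectations. Ratios add 0.5 UMIs to each sum, have exact conditional intervals, and were compared with all genes of at least 100 UMIs. Between classes, a gene was compared where at least 5 UMIs were expected. Scripts were tested on simulated data.

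The rule for named genes was all 10 members, up to 4 genes past 1.5-fold per list, and the 3 genes closest by Pearson correlation over classes with at least 30 cells, among genes reaching 50 CPM, of which 2 are not reported here. The members and lists were chosen with earlier results of these data known. The alternatives tried were other cell filters, doublets kept, Leiden classes, other scalings, other depths and other phase calls.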

Additional observations from a re-analysis of the deposited data

How the results depend on the processing

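No member was past 1.5-fold between the libraries in tumor-like cells without the mitochondrial limit, with a limit of 10%, with doublets kept, with Leiden classes or after centering on the median gene. The background did move: with genes of at least 20 UMIs 9.65% were higher and 4.45% lower, and with no filter 21.2% and 14.2%. Of 989 values under an alternative, 792 stayed within the counting interval of the value reported, 197 moved beyond it and 0 past 1.5-fold changed sign. Of those that moved, 86 were shares of cells without thinning and 58 were shares at 2000 UMIs. Such shares rise with depth, so these totals are not a measure of robustness. The Cdkn1a ratio in tumor-like cells ranged from -0.39 to -0.18 and that of Gdf15 from -0.44 to -0.32 on the log2 scale. The cause of these shifts was not tested. The sign of the S-over-G1 ratio depended on the phase call for Gdf15 in both libraries, for Cdkn1a and Ccng1 in Olaparib + LLY-283 and for Phlda3 in Combo, and the library ratio of Phlda3, near 0, changed sign in 1 of 8 alternatives. Depth limits Cdkn2b outside tumor-like cells and all genes in the classes with under 50 cells. No paired analysis was possible because each group has 1 library.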

Other observations

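Cells left out by the filter on detected genes and mitochondrial share numbered 86 and 1586. Per 1000000 non-mitochondrial UMIs, the left-out cells of the Combo library held Cdkn1a at 236 (203 to 273), Mdm2 at 126 (102 to 154) and Bax at 323 (284 to 366), where kept cells of all classes held 195, 86.0 and 383. The class makeup of the left-out cells was not determined.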
